A study of Homo sapiens with 60 samples.

Results

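Human SW1783 cells, a line grown from an astrocytoma (a glial brain tumour), received an ethanol extract of Sibjeondaebo-tang at 500 µg/mL or one of Palmul-tang at 500 µg/mL, and their RNA was sequenced 24 h later. The comparison takes in the 6 RNA sequencing libraries whose labels give these extracts at the high dose, 3 of each, out of 60 libraries in the series. Both formulas are traditional mixtures of tonic herbs. By their recipes Sibjeondaebo-tang holds the herbs of Palmul-tang and adds astragalus root (Astragali Radix) and cinnamon bark (Cinnamomi Cortex). The labels give the total mass of extract per volume and not the share of each herb, so the dose of any shared herb is not matched by design. The comparison asks what differs in the transcriptome between the larger formula and the formula it extends. Each formula was also given at 100 µg/mL (medium dose) and 20 µg/mL (low dose) with 3 libraries each, and all 18 of these libraries carry the same label code. Whether the replicates were separate cultures is not in the labels, so the p-values reflect only the spread among these libraries, which may be technical.

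The marker genes of the comparison belong to 3 linked systems. NRF2 is a transcription factor that the adaptor KEAP1 marks for degradation; electrophiles and oxidants disable KEAP1, and NRF2 then switches on genes of glutathione, thioredoxin, NADPH and quinone metabolism from antioxidant response elements in their control regions. HMOX1, heme oxygenase, opens the heme ring and frees iron, biliverdin and carbon monoxide, and is repressed by BACH1 until heme or oxidants release it, while ALAS1 makes the first intermediate of heme and is held down by heme itself. DHRS3 reduces retinaldehyde to retinol, which lowers the supply of retinoic acid, and in many cells it is itself a retinoic acid target.

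The 6 libraries held 23953575 to 32055612 counts, those of Sibjeondaebo-tang 23953575 to 32055612 and those of Palmul-tang 24827778 to 30020211, within the range of 19793387 to 37152410 over the series. Levels are in CPM, the count of a gene relative to its library's total after TMM normalisation, and a gene is said to have risen or fallen, or to be called, where the adjusted p of the edgeR test was below 0.05 over 16870 genes tested. Risen and fallen set Sibjeondaebo-tang against Palmul-tang at the same dose and not against the vehicle, which the labels give as DMSO. Of 15 astrocyte and glial markers 8 were expressed highly enough to be tested. The defining astrocyte markers GFAP and AQP4 summed to 9 and 1 counts over the Sibjeondaebo-tang libraries and to 5 and 0 over the Palmul-tang libraries, so these cells hold next to none of their RNA. Of 14 markers of other cell types 6 were tested and none was called, and their summed level was 50.15 to 52.01 CPM with Sibjeondaebo-tang and 48.36 to 54.57 CPM with Palmul-tang. In bulk RNA of this kind, fewer cells of a type and less RNA per cell cannot be told apart.

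HMOX1, on chromosome 22 at 35380361 to 35394214 of GRCh38, was the largest of the rises at or above 5 CPM whose groups did not overlap, among genes with a symbol. It stood at 585, 568 and 656 CPM with Sibjeondaebo-tang and at 284, 262 and 283 CPM with Palmul-tang. Every Sibjeondaebo-tang library lay far above every Palmul-tang library, a 2.18-fold difference (log2 1.13 ± 0.07 SE, adjusted p = 5.36e-10). ALAS1 on chromosome 3 (52198086 to 52214327) had 123, 125 and 127 CPM with Sibjeondaebo-tang and 85.7, 83.0 and 80.2 CPM with Palmul-tang. The 3 libraries of each formula were closer to each other than for HMOX1, and ALAS1 rose 1.51-fold (log2 0.59 ± 0.036, adjusted p = 5.36e-10). NQO1 on chromosome 16 (69706996 to 69726951), which encodes a quinone reductase, had 417, 400 and 447 CPM with Sibjeondaebo-tang and 285, 280 and 280 CPM with Palmul-tang. It rose 1.5-fold (log2 0.58 ± 0.047, adjusted p = 1.98e-08), again without overlap. DHRS3 on chromosome 1 (12567910 to 12617731) went the other way, with 13.9, 13.3 and 14.4 CPM with Sibjeondaebo-tang and 24.2, 25.8 and 27.9 CPM with Palmul-tang. It was 1.87-fold lower with Sibjeondaebo-tang (log2 -0.91 ± 0.071, adjusted p = 1.64e-08). These 4 calls held under each of the 17 alternative settings, with log2 differences of 1.04 to 1.17 for HMOX1, 0.57 to 0.63 for ALAS1, 0.51 to 0.62 for NQO1 and -0.97 to -0.85 for DHRS3.

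**Figure D1:**
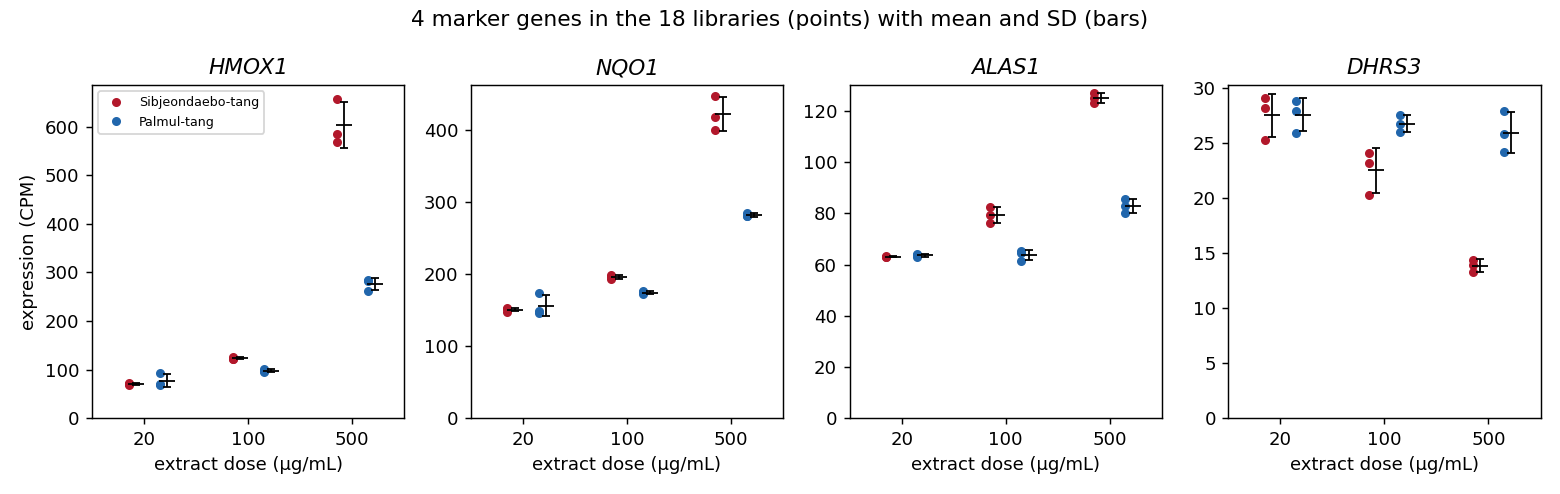
Level of the 4 marker genes in CPM (vertical axis, linear from 0) at 20, 100 and 500 µg/mL of Sibjeondaebo-tang (red) and Palmul-tang (blue), each point 1 library, with the group mean and SD in black. At 500 µg/mL HMOX1, NQO1 and ALAS1 averaged 603, 421 and 125 CPM with Sibjeondaebo-tang against 276, 281 and 83.0 CPM with Palmul-tang, and DHRS3 averaged 13.9 CPM against 26.0 CPM.

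Across all genes the difference at 500 µg/mL was wide but shallow. Of 16870 genes tested, 4002 (23.7%) were called, 2119 higher with Sibjeondaebo-tang (12.6%) and 1883 lower (11.2%), and the median size of the called differences was 0.21 on the log2 scale. The large differences lay mostly on the lower side. At least 1.25-fold differences were called higher in 129 genes and lower in 824, at least 1.5-fold in 25 and 337, and at least 2-fold in 14 and 91. The called falls were at lower levels than the called rises, with a median of 24.1 CPM against 76.1 CPM, and 82.5% of them were protein coding against 98.1% of the rises. The groups of 3 did not overlap in 2976 genes that were higher with Sibjeondaebo-tang (17.6%) and in 3009 that were lower (17.8%). The number of calls leaned on Sibjeondaebo-tang replicate 3, without which 2384 genes were called, and a fit that shares 1 spread over the 57 replicated libraries of the series left 964, 32.1% of them higher. Without 2 low-dose Astragali Radix libraries, that larger fit called 4288 genes, 52.8% of them higher. These 2 libraries stood apart from the rest in an earlier account of these data.

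**Figure D2:**
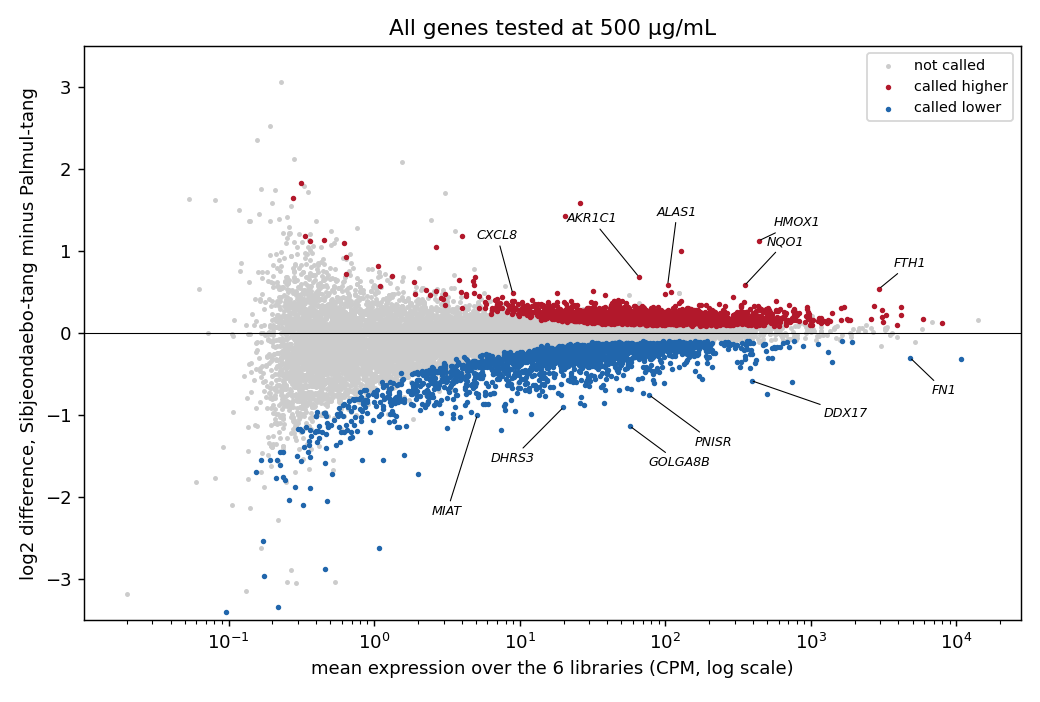
Log2 difference, Sibjeondaebo-tang minus Palmul-tang at 500 µg/mL (vertical axis), against the mean level of each gene over the 6 libraries (horizontal axis, CPM on a log scale), with called genes in red (2119 higher) and blue (1883 lower) and the others in grey. HMOX1 lies at 1.13, the red points above it at about the middle of the axis are RN7SL1 and RN7SL2, whose groups overlap, the blue points reach farther down than the red points reach up, and 9 genes beyond 3.5 in size are not drawn.

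The antioxidant genes rose as a body. Of 28 NRF2 antioxidant targets, 23 rose and 1 fell, with a median log2 difference of 0.29 against -0.0037 over all genes tested. Among all genes 12.6% rose and 11.2% fell. The level of the list lay 0.267, 0.255 and 0.325 above the Palmul-tang mean in the 3 Sibjeondaebo-tang libraries on the log2 scale. After HMOX1 the largest rise was that of AKR1C1, an aldo-keto reductase that clears steroid and lipid carbonyls, at 77.4, 80.5 and 85.1 CPM with Sibjeondaebo-tang and 50.9, 47.4 and 52.9 CPM with Palmul-tang (log2 0.69 ± 0.05, adjusted p = 6.27e-09). Its relatives AKR1C3 (log2 0.49 ± 0.1, adjusted p = 0.0012) and AKR1C2 (0.38 ± 0.071, adjusted p = 0.000558) rose too, but the AKR1C genes are near copies and reads may have been split among them. Thioredoxin TXN, the small protein that reduces disulfides, rose by log2 0.43 ± 0.06 (adjusted p = 2.09e-05), and its reductase TXNRD1 by 0.21 ± 0.043 (adjusted p = 0.00109). Peroxiredoxin PRDX1, which spends thioredoxin on hydrogen peroxide, rose by 0.39 ± 0.05 (adjusted p = 9.44e-06), and sulfiredoxin SRXN1, which repairs it, by 0.34 ± 0.039 (adjusted p = 1.95e-06). The NADPH makers rose together, with TALDO1 and TKT of the non-oxidative pentose phosphate branch at log2 0.39 and 0.26, PGD of the oxidative branch at 0.34, and malic enzyme ME1 at 0.33.

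Of the genes of glutathione synthesis, GCLM, the modifier subunit of glutamate-cysteine ligase in glutathione synthesis, had 182, 197 and 195 CPM with Sibjeondaebo-tang and 147, 152 and 156 CPM with Palmul-tang, a rise of log2 0.34 ± 0.047 (adjusted p = 2.26e-05). Its catalytic partner GCLC differed by 0.11 ± 0.052 (adjusted p = 0.149), and the cystine importer SLC7A11, at 245, 282 and 213 CPM with Sibjeondaebo-tang and 218, 220 and 225 CPM with Palmul-tang, overlapped between the groups (0.16 ± 0.066, adjusted p = 0.0881). SLC7A11 passed the threshold in 6 of 17 alternative settings, with log2 differences of 0.048 to 0.353 over all of them. The autophagy receptor gene SQSTM1, at log2 -0.021 ± 0.049, and the exporter gene ABCC2, at 0.14 ± 0.204, also missed the threshold. The one fall of the list was ABCC3, an organic anion exporter, at 107, 115 and 97.7 CPM with Sibjeondaebo-tang and 124, 128 and 125 CPM with Palmul-tang (log2 -0.24 ± 0.052, adjusted p = 0.0021).

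Promoters were searched for TGACNNNGC, the core letters of the antioxidant response element, on both strands of the 300 bases from 250 before to 50 after each RefSeq gene start (GRCh38.p14). Of the 20 NRF2 targets with a window in the table, 6 held a match (30%), against 15.1% of 11760 tested genes, 16% of 1736 called higher and 15.4% of 1348 called lower. The windows of NQO1, ALAS1, AKR1C1 and DHRS3 held no match, which says only that these letters are not in those windows. HMOX1 and FTH1 had no window and were not searched. PGD, CBR1 and PIR held a match and rose, by log2 0.34, 0.24 and 0.25. As examples, the windows of 3 others of the 6 members with a match, which also rose, are shown with each match in capitals. They lie at chr1:93909381-93909680 on the minus strand for GCLM, chr6:83431002-83431301 on the minus strand for ME1 and chr12:104215529-104215828 on the plus strand for TXNRD1, each printed 5′ to 3′ along its gene. A match is a description of the sequence and not evidence of binding.
GCLM: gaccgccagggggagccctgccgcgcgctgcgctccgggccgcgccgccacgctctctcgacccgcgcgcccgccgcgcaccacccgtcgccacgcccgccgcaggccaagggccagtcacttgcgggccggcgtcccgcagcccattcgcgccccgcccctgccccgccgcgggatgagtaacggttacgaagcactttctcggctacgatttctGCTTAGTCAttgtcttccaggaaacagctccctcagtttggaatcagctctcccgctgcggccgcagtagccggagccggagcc
ME1: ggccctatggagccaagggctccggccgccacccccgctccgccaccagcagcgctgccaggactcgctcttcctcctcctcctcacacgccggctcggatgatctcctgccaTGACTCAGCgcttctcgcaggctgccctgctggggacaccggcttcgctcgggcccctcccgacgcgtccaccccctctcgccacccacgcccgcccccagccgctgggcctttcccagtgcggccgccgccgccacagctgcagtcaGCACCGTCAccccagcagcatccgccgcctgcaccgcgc
TXNRD1: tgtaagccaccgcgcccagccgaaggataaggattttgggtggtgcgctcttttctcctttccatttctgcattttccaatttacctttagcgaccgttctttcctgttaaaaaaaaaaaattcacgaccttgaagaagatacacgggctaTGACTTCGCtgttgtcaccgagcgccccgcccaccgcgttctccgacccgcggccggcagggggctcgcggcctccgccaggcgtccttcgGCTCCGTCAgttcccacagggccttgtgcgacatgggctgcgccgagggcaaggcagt
GCLM holds 1 match, and ME1 and TXNRD1 hold 2 matches each, 1 on each strand.

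Several heme and iron genes rose. Of 15 heme metabolism genes 6 rose, against 12.6% of all genes, and none fell (median log2 0.096). Among them were HMOX1 and ALAS1, already given, the biliverdin reductase BLVRB (log2 0.22, adjusted p = 0.00794), the heme transporter SLC48A1 (0.19 ± 0.05, adjusted p = 0.00691) and the constitutive heme oxygenase HMOX2 (0.15, adjusted p = 0.0196). BLVRB missed the threshold without Sibjeondaebo-tang replicate 3 (adjusted p = 0.0705) and with length and GC content corrected (adjusted p = 0.0514). HMOX2 missed it without Sibjeondaebo-tang replicate 1 or 3 (adjusted p = 0.0858 and 0.125) and without Palmul-tang replicate 2 or 3 (adjusted p = 0.0673 and 0.0634). ALAD and FECH, the second and the last enzymes of heme synthesis, differed by log2 0.001 ± 0.039 and 0.071 ± 0.05 and were not called. FTH1, the ferroxidase subunit of ferritin, stood at 3711, 3276 and 3510 CPM with Sibjeondaebo-tang and at 2342, 2370 and 2499 CPM with Palmul-tang (log2 0.54 ± 0.056, adjusted p = 6.81e-07). The light chain gene FTL rose by 0.33 ± 0.06 (adjusted p = 0.000365), and NCOA4, which delivers ferritin for breakdown, by 0.14 ± 0.034 (adjusted p = 0.0059), while the transferrin receptor TFRC differed by 0.024 ± 0.032 (adjusted p = 0.646). FTH1 has many processed pseudogenes, so its count is uncertain to that extent.

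Of 14 tested genes of retinoid metabolism and response none rose and 2 fell, against 11.2% of all genes called lower, and the median was -0.023. Besides DHRS3 this was STRA6, the cell surface receptor for retinol-binding protein (log2 -0.19 ± 0.055, adjusted p = 0.0124), which missed the threshold without Sibjeondaebo-tang replicate 2 (adjusted p = 0.0513). CYP26B1, which degrades retinoic acid and is induced by it, had 41.8, 36.4 and 31.5 CPM with Sibjeondaebo-tang and 41.6, 41.7 and 42.7 CPM with Palmul-tang. Its groups overlapped and it lay at the edge of the threshold (log2 -0.21 ± 0.076, adjusted p = 0.0503), which it passed in 7 of 17 alternative settings, and the list as a whole gave 1 to 4 falls over these settings. RARB, a classical retinoic acid target, had 17.6, 17.6 and 19.3 CPM with Sibjeondaebo-tang and 17.1, 18.3 and 16.9 CPM with Palmul-tang, which overlapped (log2 0.055 ± 0.054, adjusted p = 0.51). ALDH1A3, which makes retinoic acid, differed by -0.088 ± 0.046 (adjusted p = 0.182), and RDH10, which works against DHRS3 by oxidising retinol, by -0.05 ± 0.051 (adjusted p = 0.527).

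Of 25 glycolysis and hypoxia-inducible genes 20 rose and 1 fell (median log2 0.29), beside 12.6% and 11.2% of all genes. BNIP3, a mitophagy receptor induced by hypoxia, had 129, 125 and 130 CPM with Sibjeondaebo-tang and 92.4, 91.6 and 87.3 CPM with Palmul-tang (log2 0.50 ± 0.037, adjusted p = 6.27e-09). LDHA, lactate dehydrogenase, rose by 0.32 ± 0.033 (adjusted p = 4.63e-07) and ALDOA, aldolase, by 0.31 ± 0.035 (adjusted p = 2.25e-06). PGK1, PGAM1, ENO1, TPI1 and GAPDH rose by log2 0.29 to 0.32, the glucose transporter SLC2A1 by 0.24 ± 0.042 and the hypoxia-induced carbonic anhydrase CA9 by 0.30 ± 0.053 (adjusted p = 0.000259). EGLN3, an oxygen-sensing prolyl hydroxylase, rose from a low level, at 5.87, 5.68 and 6.67 CPM with Sibjeondaebo-tang and 4.29, 4.96 and 3.96 CPM with Palmul-tang (log2 0.46 ± 0.118, adjusted p = 0.00702), but missed the threshold without Sibjeondaebo-tang replicate 3 (adjusted p = 0.0515). VEGFA, the angiogenic factor and a textbook hypoxia target, fell instead, at 372, 394 and 346 CPM with Sibjeondaebo-tang and 465, 461 and 465 CPM with Palmul-tang (log2 -0.32 ± 0.038, adjusted p = 3.65e-06). ADM, another hypoxia target, overlapped between the groups (0.06 ± 0.074, adjusted p = 0.613). With the 57 replicated libraries in the fit 12 of the 25 were higher and 1 lower, and without the 2 Astragali Radix libraries 20 and 1.

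Genes of the ribosome and of the respiratory chain rose by small amounts, beside 12.6% of all genes that rose and 11.2% that fell. Of 34 cytosolic ribosomal protein genes 28 rose and none fell (median log2 0.19), among them RPS3 (0.24 ± 0.042, adjusted p = 0.000232) and RPL6 (0.25 ± 0.047, adjusted p = 0.000435). Of 29 nuclear genes of oxidative phosphorylation 20 rose and none fell (median log2 0.19), with UQCRH of complex III, the lowest in p, at 0.30 ± 0.05 (adjusted p = 0.000157). The 13 mitochondrially encoded genes of the same complexes gave no call (median log2 0.053), and their 3 Sibjeondaebo-tang libraries lay at 0.261, -0.002 and -0.082 around the Palmul-tang mean. Ribosomal protein genes have many pseudogenes, and both nuclear lists hold short transcripts, with median lengths of 714.5 and 605 bases. Over 16766 genes the difference at 500 µg/mL had a rank correlation of -0.125 with transcript length and 0.136 with GC content. Against GC content the 3 Sibjeondaebo-tang libraries gave 0.165, -0.000675 and 0.18, so replicate 2 stood apart from the others in this respect. With trends of length and GC content removed from each library, 27 ribosomal protein genes and 21 nuclear oxidative phosphorylation genes rose. With replicate 2 as the only Sibjeondaebo-tang library the medians were 0.164 and 0.185; in that fit 7 and 5 genes were called higher and 16 NRF2 targets, the spread of that arm being taken from the remaining groups. With the 57 replicated libraries of the series in the fit the numbers were 2 and 0, and 17 for NRF2 targets, at medians of 0.189, 0.192 and 0.290. Without the 2 Astragali Radix libraries they were 27, 16 and 24.

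**Figure D3:**
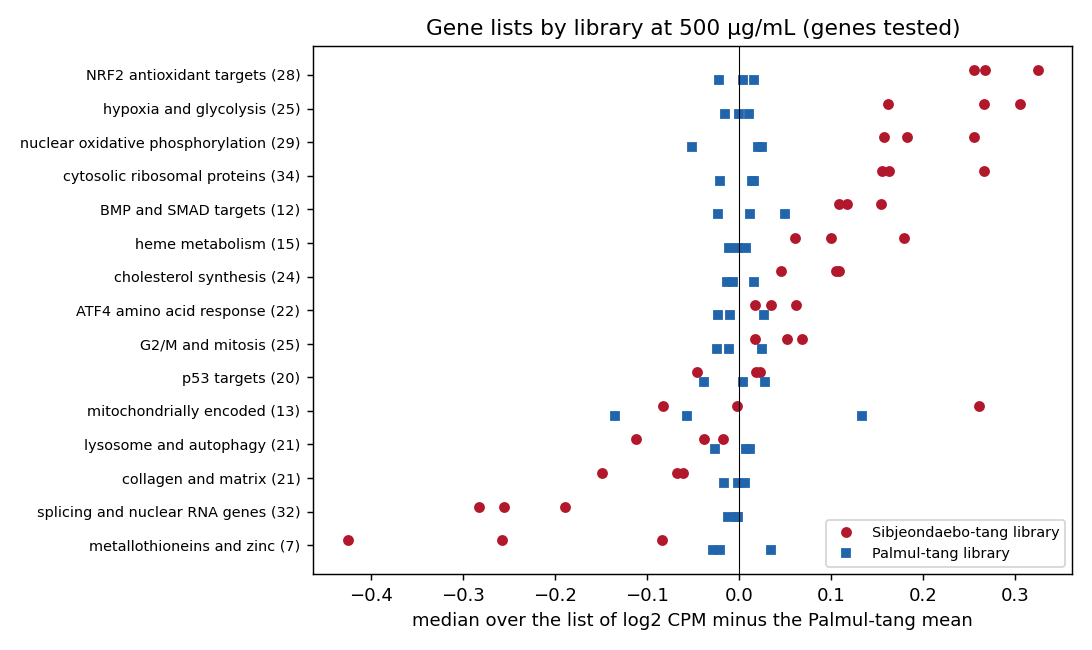
Median over the tested genes of each list (number in brackets) of log2 CPM minus the mean of the 3 Palmul-tang libraries (horizontal axis), 1 red point for each Sibjeondaebo-tang library and 1 blue square for each Palmul-tang library at 500 µg/mL. NRF2 targets lie at 0.255 to 0.325 and splicing and nuclear RNA genes at -0.282 to -0.189 in the Sibjeondaebo-tang libraries, while mitochondrially encoded genes overlap between the formulas.

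Noncoding RNAs, pseudogenes, readthrough genes and members of repeated families made up most of the 12 largest falls. GOLGA8B, a golgin gene, had 34.7, 43.1 and 29.6 CPM with Sibjeondaebo-tang and 80.4, 77.9 and 78.9 CPM with Palmul-tang, 2.2-fold lower (log2 -1.14 ± 0.078, adjusted p = 2.64e-09). Its near copy GOLGA8A was at log2 -0.88 ± 0.115 (adjusted p = 1.24e-05), and reads may have been split between them. The long noncoding RNA MIAT, which resides in the nucleus, had 2.76, 4.71 and 2.58 CPM with Sibjeondaebo-tang and 6.89, 6.40 and 7.32 CPM with Palmul-tang (log2 -1.001 ± 0.15, adjusted p = 6.03e-05). In all these the groups did not overlap, and replicate 2 was the least lowered of the Sibjeondaebo-tang libraries. The other large falls were the HERC2 pseudogenes HERC2P2 and HERC2P3 (log2 -0.86 and -0.95), the pseudogene AHSA2P (-0.86), LINC01001 (-0.86), the antisense RNA POLR1HASP (-0.89), BTBD19 (-0.86) and the readthrough genes BIVM-ERCC5 (-1.18) and BCL2L2-PABPN1 (-0.94). The readthrough genes, the HERC2 copies and the antisense RNA share sequence with neighbours or relatives, so their counts are uncertain. BCL2L2-PABPN1 missed the threshold without Sibjeondaebo-tang replicate 2 (adjusted p = 0.0948) or without Palmul-tang replicate 3 (adjusted p = 0.0672).

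A list of 32 splicing and nuclear RNA genes was drawn up after these values had been seen and so describes the falls without testing them: 21 members were lower, 2 were higher and the median was -0.24. The falls included the SR-related genes PNISR (log2 -0.76 ± 0.064), ARGLU1 (-0.68 ± 0.064) and LUC7L3 (-0.57 ± 0.05), the cyclin gene CCNL2 (-0.73 ± 0.057), the helicase gene DDX17 (-0.58 ± 0.048) and OGT, which encodes the O-GlcNAc transferase and retains an intron in most cells (-0.53 ± 0.041). DDX17 had 303, 353 and 286 CPM with Sibjeondaebo-tang and 473, 474 and 462 CPM with Palmul-tang. The kinase genes CLK1 and CLK4, which phosphorylate SR proteins, were at -0.33 and -0.34. NEAT1, the scaffold of paraspeckles, was at -0.60 (adjusted p = 0.00187), but MALAT1, the most abundant of the nuclear noncoding RNAs in many cells, differed by -0.032 (adjusted p = 0.8). The size of the NEAT1 fall depended on the libraries and settings, with log2 differences of -0.926 to -0.101 over 17 alternative settings. CLK1 ranged from -0.439 to -0.161 and CLK4 from -0.427 to -0.200. The SR protein genes SRSF3 and SRSF1 rose by 0.17 and 0.14. No value here separates nuclear from cytoplasmic RNA, so the part of extraction or of RNA location in these differences was not tested.

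**Figure D4:**
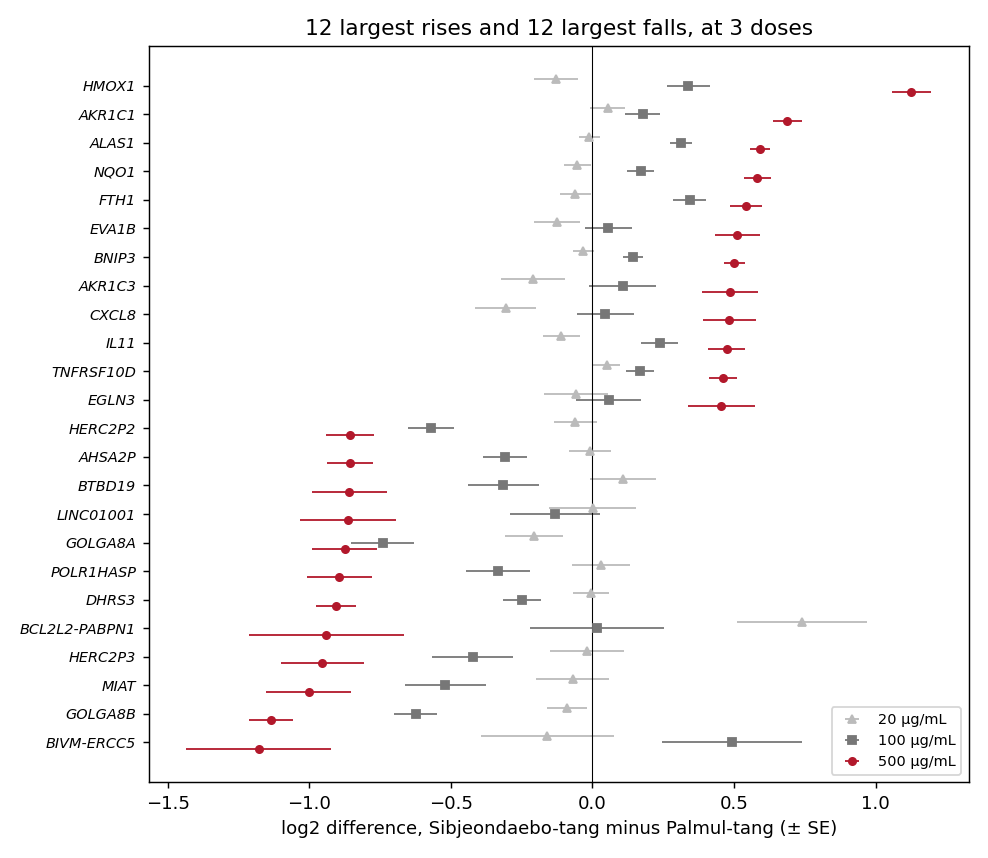
Log2 difference, Sibjeondaebo-tang minus Palmul-tang, with its SE (horizontal axis) for the 12 largest rises and the 12 largest falls at 500 µg/mL, at 20 µg/mL (light triangles), 100 µg/mL (grey squares) and 500 µg/mL (red circles). ALAS1, FTH1, GOLGA8B and GOLGA8A already stand apart from 0 at 100 µg/mL, at 0.31, 0.34, -0.62 and -0.74, while the points at 20 µg/mL lie near 0 for most genes.

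Matrix and lysosome genes leaned lower. Of 21 collagen and matrix genes 8 fell and 1 rose (median log2 -0.079), beside 11.2% and 12.6% of all genes. Fibronectin FN1 had 4429, 4372 and 4151 CPM with Sibjeondaebo-tang and 5417, 5330 and 5237 CPM with Palmul-tang (log2 -0.30 ± 0.029, adjusted p = 2.79e-07), and COL6A3, LAMB1 and POSTN fell by 0.24, 0.19 and 0.21. COL1A1, the main fibrillar collagen chain, differed by 0.045 ± 0.036 (adjusted p = 0.401), and the crosslinking enzyme LOX rose by 0.14 but missed the threshold without Palmul-tang replicate 1 (adjusted p = 0.0613). With the 57 libraries in the fit none of the 21 was called, though FN1 stayed at -0.30, and without the 2 Astragali Radix libraries 9 fell and 1 rose. Of 21 lysosome and autophagy genes 6 fell and 1 rose (median log2 -0.042), beside the same shares of all genes. Among the falls were the hydrolase gene HEXA (-0.27 ± 0.037, adjusted p = 2.13e-05), the cholesterol exporter NPC1 (-0.22 ± 0.036, adjusted p = 0.000135) and the membrane protein LAMP2.

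Cell cycle genes moved in both directions. Of 25 G2/M and mitosis genes 6 rose and 4 fell (median log2 0.051). Among all genes tested, the background for both lists here, 12.6% were called higher and 11.2% lower. CDC20 and UBE2C, which act in the anaphase-promoting pathway, rose by 0.26 ± 0.057 each (adjusted p = 0.00187 and 0.00212). The large kinetochore genes CENPE and CENPF fell by 0.31 ± 0.062 and 0.26 ± 0.041 (adjusted p = 0.000759 and 0.000114), and MKI67, the proliferation marker, by 0.26 ± 0.058 (adjusted p = 0.00264). MKI67 stood at 162, 139 and 131 CPM with Sibjeondaebo-tang and at 171, 172 and 171 CPM with Palmul-tang, so replicate 1 was close to the Palmul-tang libraries and the others lower. With trends of transcript length and GC content removed 10 of the 25 rose and 4 fell. Of 22 DNA replication genes 5 rose, with RRM2 and MCM5 at 0.15 and 0.16, and 2 fell, POLE and POLA1 at -0.13 each. MCM5 missed the threshold without Sibjeondaebo-tang replicate 3 (adjusted p = 0.0562), POLE without Sibjeondaebo-tang replicate 1 or Palmul-tang replicate 2 (adjusted p = 0.0625 and 0.0859), and POLA1 in 11 of 17 alternative settings.

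The calls among metallothionein genes were all falls, and the 1 rise of the list was a zinc importer. Of 7 tested metallothionein and zinc genes 3 fell and 1 rose (median log2 -0.26), beside 11.2% and 12.6% of all genes. MT2A, a metallothionein gene that binds zinc and copper, had 298, 275 and 260 CPM with Sibjeondaebo-tang and 395, 337 and 378 CPM with Palmul-tang (log2 -0.41 ± 0.065, adjusted p = 9.81e-05). MT1E fell by 0.55 ± 0.067 (adjusted p = 5.97e-06) and MT1X by 0.19 ± 0.06 (adjusted p = 0.0212), a call that was lost in 10 of 17 alternative settings, while the zinc importer SLC39A10 rose by 0.37 ± 0.041 (adjusted p = 2.02e-06). Reads of metallothionein genes may be split among near copies.

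Signalling genes gave calls in both directions. Of 20 NF-kB and inflammatory genes 2 rose and 3 fell, a share close to the 23.7% of all genes called. CXCL8, the neutrophil chemokine, had 10.6, 10.4 and 10.4 CPM with Sibjeondaebo-tang and 6.78, 8.16 and 7.44 CPM with Palmul-tang (log2 0.48 ± 0.093, adjusted p = 0.000631), and NFKBIA, the NF-kB inhibitor, rose by 0.16 ± 0.053, which was lost in 8 of 17 alternative settings. NFKBIZ (-0.44 ± 0.119, adjusted p = 0.00982), LIF (-0.21 ± 0.049) and ICAM1 (-0.17) fell, the call of ICAM1 being lost in 7 of 17, and IL6 overlapped between the groups (0.052 ± 0.108, adjusted p = 0.779). IL11, a cytokine of the IL6 family and outside that list, rose by 0.47 ± 0.065 (adjusted p = 2.07e-05), and TNFRSF10D, a decoy receptor for TRAIL, by 0.46 ± 0.05 (adjusted p = 1.13e-06). EVA1B, a membrane protein gene of little known role, rose by 0.51 ± 0.08 (adjusted p = 8.89e-05). Of 12 BMP and SMAD targets 3 rose, against 12.6% of all genes, and none fell, among them the inhibitors of differentiation ID1 (0.30 ± 0.071, adjusted p = 0.00406) and ID3 (0.33 ± 0.092, adjusted p = 0.0112). ID3 missed the threshold without Sibjeondaebo-tang replicate 3 (adjusted p = 0.0835) or Palmul-tang replicate 3 (adjusted p = 0.0531). ID2 missed it in the main test at 0.30 ± 0.114 (adjusted p = 0.0634) and passed without Sibjeondaebo-tang replicate 2, and the feedback inhibitors SMAD6 and SMAD7 were at 0.12 ± 0.101 and -0.027 ± 0.076.

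Other stress programmes stood beside the 12.6% of all genes called higher and 11.2% called lower. Of 22 ATF4 amino acid response genes 5 rose and 3 fell (median log2 0.039). DDIT4, an mTOR inhibitor, rose by 0.33 ± 0.048 (adjusted p = 3.61e-05), GDF15 fell by 0.39 ± 0.093 (adjusted p = 0.00412), and ASNS, asparagine synthetase, differed by 0.046 ± 0.042 (adjusted p = 0.474). Of 15 heat shock genes HSP90AA1 (0.19 ± 0.034, adjusted p = 0.000455) and HSPB1 (0.17 ± 0.06, adjusted p = 0.0391) rose. The call of HSPB1 was lost in 10 of 17 alternative settings, among them the correction for length and GC content (log2 0.081, adjusted p = 0.28). Of 17 genes of the unfolded protein response in the endoplasmic reticulum 4 rose, with SDF2L1 at 0.31 ± 0.065 (adjusted p = 0.00152), and HSP90B1 fell by 0.23 ± 0.032 (adjusted p = 2.22e-05). Of 20 p53 targets ZMAT3 and CCNG1 rose, by 0.13 and 0.14, and ZMAT3 missed the threshold without Sibjeondaebo-tang replicate 2 or Palmul-tang replicate 1 or 2 (adjusted p = 0.107, 0.0744 and 0.0946). Against the 12.6% of all genes called higher, rises were counted in 4 of 24 cholesterol synthesis genes, 3 of 18 PPAR target and lipid droplet genes, 3 of 12 fatty acid synthesis genes and 4 of 22 MAPK feedback and early genes. Of 11 AhR targets 4 rose, namely NQO1, which is also an NRF2 target, ALDH3A1, TIPARP and SLC7A5, of which TIPARP missed the threshold without Sibjeondaebo-tang replicate 3 (adjusted p = 0.0512). ALDH3A1, an aldehyde dehydrogenase on the AhR list, rose at 1.21, 1.498 and 1.33 CPM with Sibjeondaebo-tang against 0.880, 0.620 and 0.800 CPM with Palmul-tang (adjusted p = 0.0123) but missed the threshold without Palmul-tang replicate 2 (adjusted p = 0.0754), while CYP1B1 differed by 0.014 ± 0.037 (adjusted p = 0.84). LXR targets, interferon-stimulated, clock, glucocorticoid and YAP/TAZ target genes gave 1 to 3 calls in each direction, with ANKRD1, a YAP/TAZ target, at -0.64 ± 0.104 (adjusted p = 0.000151). Of 15 SRF and actin genes 5 rose, by at most 0.20, and CALD1 fell by 0.13. The calcium store list gave 2 rises and 3 falls of 10, the largest fall that of the calcium pump gene ATP2A3 (-0.65 ± 0.144, adjusted p = 0.0022), and xenobiotic transport genes 3 rises and 2 falls of 13, with the exporter ABCC5 at -0.38 ± 0.04 (adjusted p = 7.9e-07). Of the glial markers NES and VIM rose, by 0.36 ± 0.08 and 0.22 ± 0.044, and the glutamate transporters SLC1A3 (-0.26 ± 0.056, adjusted p = 0.00158) and SLC1A2 fell. SLC1A2 rests on 6 counts over the Sibjeondaebo-tang and 20 over the Palmul-tang libraries, and its call was lost in 12 of the 14 alternative settings that gave it a value (adjusted p up to 0.37).

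The difference between the formulas was then followed down the doses, in libraries that the comparison at 500 µg/mL did not use. At 100 µg/mL 77 genes were called (0.456%), 26 higher (0.154%) and 51 lower (0.302%) with Sibjeondaebo-tang, and 73 of them were also called at 500 µg/mL in the same direction. Among them were ALAS1, with 82.6, 79.2 and 76.1 CPM with Sibjeondaebo-tang and 61.4, 64.6 and 65.1 CPM with Palmul-tang (log2 0.31 ± 0.039, adjusted p = 0.000257), and HMOX1, with 122, 126 and 123 CPM against 95.7, 96.4 and 101 CPM (0.34, adjusted p = 0.0437). FTH1 rose by log2 0.34 (adjusted p = 0.00411) and LDHA by 0.14 (adjusted p = 0.0461), while GOLGA8B fell by 0.62 (adjusted p = 0.000257), GOLGA8A by 0.74 (adjusted p = 0.00251) and DDX17 by 0.34 (adjusted p = 0.00177). NQO1 and DHRS3 lay apart by 0.17 and -0.25 and missed the threshold (adjusted p = 0.114 and 0.0975). Of the lists, HMOX1 was the single NRF2 target called, and 5 splicing and nuclear RNA genes were lower. The number called at this dose was unstable, from 13 with the 57 libraries in the fit to 484 without a filter on low counts. It was 17, 16, 17 and 18 without Sibjeondaebo-tang replicate 1, Sibjeondaebo-tang replicate 3, Palmul-tang replicate 1 and Palmul-tang replicate 3 of this dose.

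Of the 4002 genes called at 500 µg/mL, 3449 (86.2%) had the same sign at 100 µg/mL, against 66.8% of all genes tested. Their median size was 0.0765 on the log2 scale at 100 µg/mL and 0.212 at 500 µg/mL. At 20 µg/mL 1523 (38.1%) had the same sign, against 44.7% of all genes. The difference at 100 µg/mL had rank correlations over 16766 genes of -0.11 with transcript length and 0.133 with GC content. At 500 µg/mL these were -0.125 and 0.136, and at 20 µg/mL 0.098 and 0.0245. The part of such trends in the shared signs was not tested. No gene (0%) was called at 20 µg/mL by edgeR, where 1337 genes had an unadjusted p below 0.05, and DESeq2 called 26. HMOX1 at this dose had 71.4, 72.9 and 67.8 CPM with Sibjeondaebo-tang and 70.2, 92.9 and 69.1 CPM with Palmul-tang. DHRS3 had 25.3, 28.2 and 29.1 CPM with Sibjeondaebo-tang and 25.9, 27.9 and 28.9 CPM with Palmul-tang, and the groups overlapped for both genes.

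A test of the change itself compared the difference between the formulas at 500 µg/mL with that at 20 µg/mL. It called 2573 genes (15.3%), 1369 toward higher (8.11%) and 1204 toward lower (7.14%) with Sibjeondaebo-tang at the high dose. The test holds the same 6 libraries at 500 µg/mL and is not independent of the comparison there. The 4 markers were among the genes called, at log2 1.26 ± 0.104 for HMOX1 (adjusted p = 4.02e-07), 0.60 for ALAS1, 0.63 for NQO1 and -0.90 for DHRS3. Of 28 NRF2 targets 18 were called higher and 1 lower, of 25 glycolysis and hypoxia genes 14 and 1, and of 34 ribosomal protein genes 23 and 0. At the low dose ribosomal protein genes had a median of -0.084 and nuclear oxidative phosphorylation genes of -0.124, with no member called, so in these lists the test also holds a small difference of the opposite sign at the low dose.

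Levels in other libraries of the series place the 4 markers, as a description without a test, since those libraries carry other label codes. HMOX1 at 603 CPM with Sibjeondaebo-tang lay above Palmul-tang (276 CPM), Sagunja-tang (210 CPM) and Samul-tang (183 CPM), all at 500 µg/mL. With the single herbs HMOX1 averaged 985 CPM at 44 µg/mL and 6495 CPM at 220 µg/mL of Astragali Radix and 372 CPM at 500 µg/mL of Cinnamomi Cortex, against 85.9 CPM with the vehicle. DHRS3 was at 13.9 CPM with Sibjeondaebo-tang and at 4.59, 10.9 and 13.9 CPM in the same herb groups, all below the 26.0 CPM of Palmul-tang, the 45.2 CPM of Sagunja-tang, the 22.3 CPM of Samul-tang and the 30.8 CPM of the vehicle. ALAS1 was at 125 CPM with Sibjeondaebo-tang and at 128 and 125 CPM with Astragali Radix at 44 and 220 µg/mL, against 84.9 CPM with Cinnamomi Cortex, 83.0 CPM with Palmul-tang and 66.8 CPM with the vehicle. NQO1 averaged 421 CPM with Sibjeondaebo-tang, 390 and 402 CPM at these doses of Astragali Radix and 193 CPM with Cinnamomi Cortex. GOLGA8B was at 35.8 CPM with Sibjeondaebo-tang and at 53.02 and 16.75 CPM with Astragali Radix, but its vehicle level of 48.8 CPM was itself below the 79.1 CPM of Palmul-tang and the 88.2 CPM of Cinnamomi Cortex, so a level lower than in Palmul-tang is not lower than in the vehicle by that fact. Against the vehicle, TNFRSF10D and CXCL8 stood at log2 -0.386 and -0.007 with Sibjeondaebo-tang and at -0.848 and -0.494 with Palmul-tang. GDF15, lower with Sibjeondaebo-tang than with Palmul-tang, stood above the vehicle with both formulas, at 1.758 and 2.144. NQO1 was also above the vehicle with both, at 1.698 and 1.118. ID3, higher with Sibjeondaebo-tang than with Palmul-tang, stood below the vehicle with both, at -1.365 and -1.695. BNIP3 and IL11 stood at 0.091 and 0.074 with Sibjeondaebo-tang and at -0.41 and -0.403 with Palmul-tang.

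**Figure D5:**
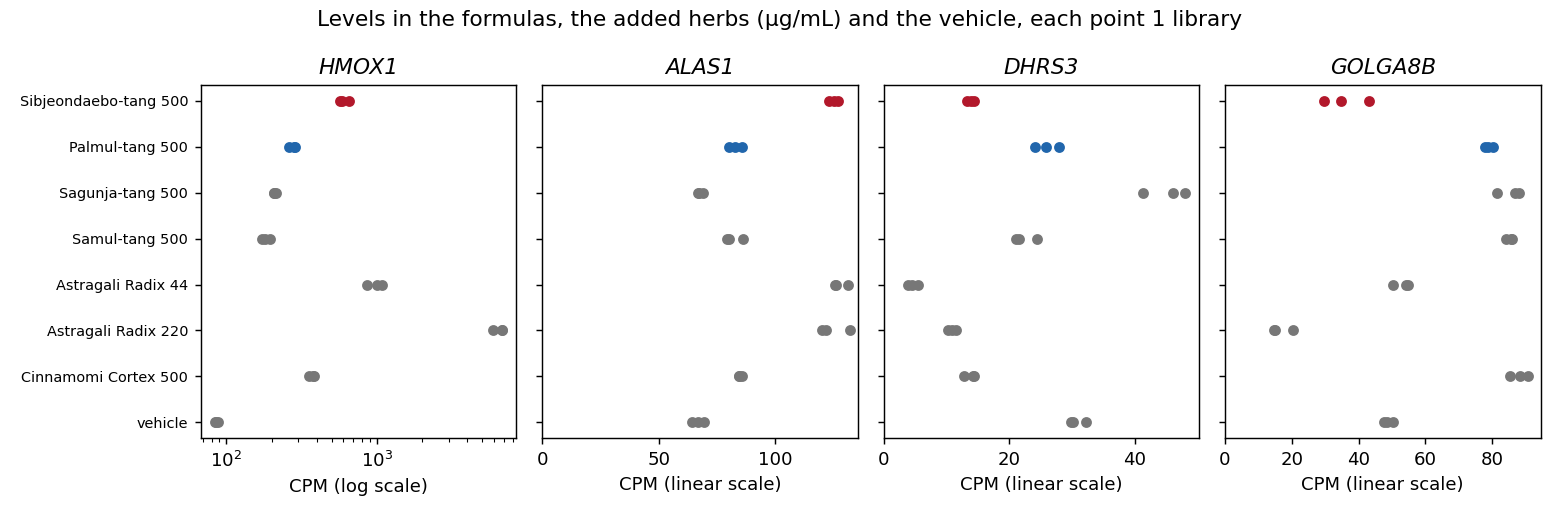
Level in CPM (horizontal axis, log scale for HMOX1 and linear from 0 for the others) of HMOX1, ALAS1, DHRS3 and GOLGA8B, 1 point for each library, with the extract and its dose in µg/mL down the page. DHRS3 is below 15 CPM in the groups of Sibjeondaebo-tang, Astragali Radix and Cinnamomi Cortex shown and above 20 CPM in Palmul-tang, Sagunja-tang, Samul-tang and the vehicle.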

How the data were processed

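Per the submitters' processing notes, reads were checked with FastQC 0.11.9, trimmed with Trim Galore 0.6.5, aligned with STAR 2.7.3a and counted with RSEM 1.3.3 on hg38. The annotation release and the strand setting of the counting are not given in the sources used here. The deposited table holds expected counts (RSEM estimates) of the authors for 60675 genes in 279 columns, of which 60 match samples of the series and 219 were not used. Whole numbers made up 90.8% of the values (tolerance 1e-09), and the rest, in 10684 genes, were rounded. Names were found by identifier for 57055 genes, and positions are those of GENCODE 29 on GRCh38.

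The 18 libraries of both formulas were fitted with edgeR 4.0.16 in R 4.3.3 (TMM scaling, filterByExpr, 1 mean per group, quasi-likelihood F test, 12 residual degrees of freedom, common dispersion 0.00155), and p-values were adjusted by Benjamini-Hochberg over 16870 genes. A larger fit of 57 libraries was not used as the main one. In an earlier account of these data 2 Astragali Radix libraries in it stood apart. The SE was taken as the size of the log2 difference over the square root of F. Log2 CPM of single libraries used a prior count of 2. In a simulation of the comparison at 500 µg/mL on 16717 genes, 44, 50, 50 and 50 of 50 genes changed by 1.25, 1.5, 2 and 4-fold were recovered and 8 unchanged genes were called. The changed genes lay above 5 CPM with Palmul-tang, and counts were drawn independently for each gene from the fitted spread. The simulation held no length or GC trend of single libraries, so it does not measure the effect of such trends on the calls. Alternatives were RLE scaling, DESeq2 1.42.0, filters on low counts, other sets of libraries, a block by replicate number, a correction for transcript length and GC content, and leaving out each library.

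The comparison, its markers, the gene lists and the tests were chosen with earlier results of these data known. The splicing and nuclear RNA list and the fit without Sibjeondaebo-tang replicates 1 and 3 were added after the values had been seen. Genes named are the 12 largest rises and falls at or above 5 CPM without overlap of the groups and with a gene symbol that is not a clone name, up to 4 called members of each list by p, the markers and all members of the NRF2 and BMP lists; other members of the lists were named after their values were seen. Some genes that this rule takes in are not reported here. Promoter sequences are from RefSeq.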

Additional observations from a re-analysis of the deposited data

Results flagged for a closer look

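The difference between the formulas itself differed between 500 and 20 µg/mL in 2573 genes by the interaction test of edgeR. The markers HMOX1 (1.26 on the log2 scale), NQO1 (0.63), ALAS1 (0.60) and DHRS3 (-0.90) each passed that test, with all 3 Sibjeondaebo-tang libraries beyond all 3 Palmul-tang libraries at 500 µg/mL and overlapping groups at 20 µg/mL.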

How the results depend on the processing

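The count of genes called at 500 µg/mL (4002) lay between 2978 and 4684 when each of the 6 libraries was left out in turn, apart from 2384 without Sibjeondaebo-tang replicate 3. It was 964 with all 57 libraries in the fit and 942 without Sibjeondaebo-tang replicates 1 and 3, and within 1.5 times the main count under the other settings, 3129 to 4288. With all 57 libraries 32.1% of the called genes were higher with Sibjeondaebo-tang, and without replicates 1 and 3 43.7%, against 52.9% in the main fit. At 100 µg/mL (77 calls) the count was 209 with DESeq2, 484 without a filter on low counts, 148 with only the compared groups, 13 with all 57 libraries, 166 with the 57 without Astragali Radix low replicates 1 and 2, and 16 to 91 with a library left out. At 20 µg/mL (0 calls) it was 26, 222, 13, 0 and 3 under the same settings in that order, and 0 to 2 with a library left out. The interaction (2573 calls) fell to 187 calls with all 57 libraries, 967 without Sibjeondaebo-tang high replicates 1 and 3, and 1657 to 3371 with a library left out, the lowest without Sibjeondaebo-tang high replicate 3. Without 2 Astragali Radix low libraries the fit of 57 gave 4288 calls at 500 µg/mL and 2796 in the interaction. It then tested 18357 genes, against 17676 with these 2 libraries. The cause of these and the other shifts was not tested. Leaving out Sibjeondaebo-tang replicate 2 raised the calls at 500 µg/mL to 4684, while leaving out replicate 3 lowered them to 2384.

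A block by replicate number gave 4162, 102, 3 and 2738 calls at 500, 100 and 20 µg/mL and in the interaction. Deviations of same-numbered libraries at 500 µg/mL correlated at 0.0175, 0.0569 and -0.0541, so the numbers were not taken to pair the samples. Of 209 genes followed through the settings no call reversed its direction. With all 57 libraries in the fit 93 lost their call, and without the 2 Astragali Radix libraries 7 did. Without Sibjeondaebo-tang replicate 3 at 500 µg/mL 31 did, and 12 to 24 did with any other library of that comparison left out.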

Other observations

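RN7SL1 and RN7SL2, near-identical RNAs of the signal recognition particle that lack a poly(A) tail, varied widely among the replicates of each formula and were singled out after their values were seen. RN7SL2 had 4.96, 61.4 and 50.2 CPM with Sibjeondaebo-tang and 5.50, 11.2 and 23.8 CPM with Palmul-tang at 500 µg/mL, so the groups overlapped although the gene was called (log2 1.58 ± 0.48, adjusted p = 0.0191). RN7SL1 showed the same order of libraries (log2 1.43 ± 0.404, adjusted p = 0.0121), and both were lowest in replicate 1 of each formula. Without Sibjeondaebo-tang replicate 2 neither RN7SL2 (adjusted p = 0.126) nor RN7SL1 (adjusted p = 0.143) passed the threshold.

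Over the 4002 genes called at 500 µg/mL, the difference between the formulas had a Pearson correlation across genes of 0.497 with the difference of Astragali Radix at 220 µg/mL from the vehicle, 0.251 with that at 44 µg/mL and -0.303 with that of Cinnamomi Cortex at 500 µg/mL. Over all 16870 genes the values were 0.272, 0.123 and -0.119. These are descriptions without a test. The differences share no library, but genes are not independent of each other, and the herb and vehicle libraries carry other label codes than the formulas.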
